A study of Arabidopsis thaliana with 24 samples.

Results

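The core cell cycle genes described here were 38 Arabidopsis thaliana loci out of 33602 genes in the count tables. They were taken by locus identifier from a list of core cell cycle genes. They comprised 5 cyclin-dependent kinase (CDK) genes, 7 A-type, 8 B-type and 6 D-type cyclin genes, 7 CDK inhibitor genes, 4 genes of the retinoblastoma-E2F module and the kinase gene WEE1. CYCB1-1 and KRP1 were not part of the list. Names and gene positions follow RefSeq's TAIR10.1 annotation, and a hyphen replaces the semicolon of the usual plant names.

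Whole seedlings of the accessions Landsberg erecta (Ler) and Columbia (Col), and of their reciprocal F1 hybrids, were profiled as polyadenylated RNA in 24 libraries. The 8 groups of 3 libraries were Ler prmt5-5, Ler wild type (WT), Col prmt5-5, Col WT, F1 Ler x Col prmt5-5, F1 Ler x Col WT, F1 Col x Ler prmt5-5 and F1 Col x Ler WT. PRMT5 is a protein arginine methyltransferase that modifies histones and spliceosomal Sm proteins. A single mutant allele, prmt5-5, was studied: it came from Col, was carried into Ler through 7 backcross generations, and was present in both parents of each prmt5-5 hybrid. Seedlings of all groups were harvested after 9 days in continuous light at 22 °C, following 4 days of cold in the dark. The labels do not say whether the 3 libraries of a group came from separate plantings, so p-values measure the spread between these libraries. A whole seedling contains few dividing cells, and in bulk RNA fewer cells of a type and less RNA per cell cannot be told apart.

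Cell division in plants is driven by CDKs bound to cyclins. D-type cyclins with CDKA-1 inactivate the retinoblastoma protein RBR1, which frees E2F factors to switch on genes of DNA replication, and B-type CDKs with A- and B-type cyclins act from G2 into mitosis. KRP proteins and SIAMESE (SIM) inhibit CDK complexes, SIM being known for the switch from division to endoreduplication in leaf hairs, and WEE1 phosphorylates CDKs when DNA is damaged.

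Many genes that peak at G2/M carry a short element, the MSA core AACGG, which MYB3R factors bind. In the 300 bases upstream of the annotated start, read from RefSeq TAIR10.1, this core was found on either strand in 19 of 38 members (50%), against 23.4% of 27443 genes with the same window. It was present in 6 of 8 B-type and 4 of 7 A-type cyclin genes, 4 of 7 inhibitor genes, 2 of 4 RBR1-E2F genes, WEE1, 1 of 5 CDK genes and 1 of 6 D-type cyclin genes. The E2F-type motif TTTCCCGC occurred upstream of RBR1 and the E2F-type motif TTTGGCGC upstream of CYCD3-3, 1 of 38 members each, against 0.689% and 0.419% of all genes. A match is a description of letters in this window and not a site shown to be bound. The upstream stretches of 4 members are shown. CYCB1-2 (chr5:1861704-1862003, minus strand) held 4 cores, the highest number among those shown. CYCB2-3 (chr1:7137829-7138128, minus strand) and CYCA3-1 (chr5:17292652-17292951, plus strand) gave the strongest rises in Col prmt5-5 and held 3 and 2 cores. KRP6 (chr3:6617952-6618251, minus strand), which gave the strongest rise in Ler prmt5-5, held 0. Capitals mark the cores, and each stretch runs 5′ to 3′ along its gene and ends at the base before the annotated start.
CYCB1-2: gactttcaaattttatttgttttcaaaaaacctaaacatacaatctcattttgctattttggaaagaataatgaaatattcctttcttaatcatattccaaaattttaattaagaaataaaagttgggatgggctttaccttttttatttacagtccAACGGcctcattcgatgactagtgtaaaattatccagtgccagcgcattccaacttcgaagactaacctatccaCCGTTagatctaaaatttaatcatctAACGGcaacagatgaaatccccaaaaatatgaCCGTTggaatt
CYCB2-3: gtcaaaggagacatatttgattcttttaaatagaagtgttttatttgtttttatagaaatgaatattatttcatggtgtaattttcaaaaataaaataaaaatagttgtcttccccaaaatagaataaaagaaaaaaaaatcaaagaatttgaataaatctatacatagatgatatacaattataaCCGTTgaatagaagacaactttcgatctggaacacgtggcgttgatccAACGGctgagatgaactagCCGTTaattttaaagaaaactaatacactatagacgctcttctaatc
CYCA3-1: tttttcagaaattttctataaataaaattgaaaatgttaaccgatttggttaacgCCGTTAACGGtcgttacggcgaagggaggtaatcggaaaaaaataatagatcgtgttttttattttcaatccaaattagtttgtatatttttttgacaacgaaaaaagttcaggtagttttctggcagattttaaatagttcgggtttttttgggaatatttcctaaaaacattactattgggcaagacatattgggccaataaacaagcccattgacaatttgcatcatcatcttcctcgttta
KRP6: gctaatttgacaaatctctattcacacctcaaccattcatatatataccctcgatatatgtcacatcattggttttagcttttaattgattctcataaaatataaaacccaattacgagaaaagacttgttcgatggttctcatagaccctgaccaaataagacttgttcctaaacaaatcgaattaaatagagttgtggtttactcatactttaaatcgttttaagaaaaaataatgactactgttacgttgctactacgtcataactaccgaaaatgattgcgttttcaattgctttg

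PRMT5 loss is known to affect introns with weak donor (5′) splice sites, so the donor sites of the members were also read. Sites were read from the annotated transcript with the longest coding sequence of each gene, so donors found only in other transcripts were left out. Of 267 such sites in the 38 members, 4.49% had a G neither at the last exon base nor at the intron's base 5. Over all 119273 sites read in this way it was 5.11%. Both positions were G in 27.7% of member sites and 31.8% of all sites. The counts are totals per gene, so use of these sites was not measured here.

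The parental libraries held 36993250 to 72713735 counts. The hybrid libraries held 6047673 to 29376326 counts, since reads entered those tables with an allele assigned, and levels in hybrids and parents are therefore not comparable. In the parents, the level of PRMT5 RNA did not separate the genotypes. It was 37.2, 32.9 and 29.7 CPM (counts scaled to the normalised library total) in Ler prmt5-5, against 32.3, 34.7 and 33.1 CPM in Ler WT. In Col prmt5-5 it gave 36.2, 30.1 and 34.5 CPM, against 31.5, 29.9 and 32.4 CPM in Col WT. Between the PRMT5 alleles of the hybrids, the log2 difference of Ler over Col was -9.18 in prmt5-5 F1 (SE 0.33, adjusted p = 2.02e-21). In WT F1 it was 0.21 (SE 0.13) and did not pass. The prmt5-5 allele came from Col, and the part of this origin in the difference was not tested. Of the parental libraries, replicate 1 of Ler prmt5-5 stood apart from its group: a chi-square of the counts over genes, per degree of freedom, was 69.4 and 55.6 against replicates 2 and 3, which gave 7.19 with each other. The other parental pairs gave 11.3 to 34.5. Without that library 11 members passed for the prmt5-5 effect in Ler, where the full set gave 12, and 6 for Ler against Col in prmt5-5, where the full set also gave 6. All 3 leaf and all 6 root marker genes were detected in every parental group, as whole seedlings require. The stem cell genes WUS and CLV3 were at 0 in all Col libraries.

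Per kilobase of exon, CDKA-1, the kinase that acts throughout the cycle, had the highest mean level in Col WT, at 29.4 ± 0.801 CPM per kb (SD, n = 3). CYCD3-2 (25.3 ± 2.48), SIM (20.6 ± 1.49) and CYCD3-1 (18.4 ± 0.445 CPM per kb) followed it. CYCA2-1 was lowest in Col WT at 0.302 ± 0.057 CPM per kb, below CYCB2-1 at 1.2 ± 0.302. The 3 libraries of each of these top 4 members lay apart from those of the next. Of the D-type cyclin genes, 5 of 6 ranked among the 12 highest, CYCD4-1 being the exception at 1.89 ± 0.519 CPM per kb.

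**Figure D1:**
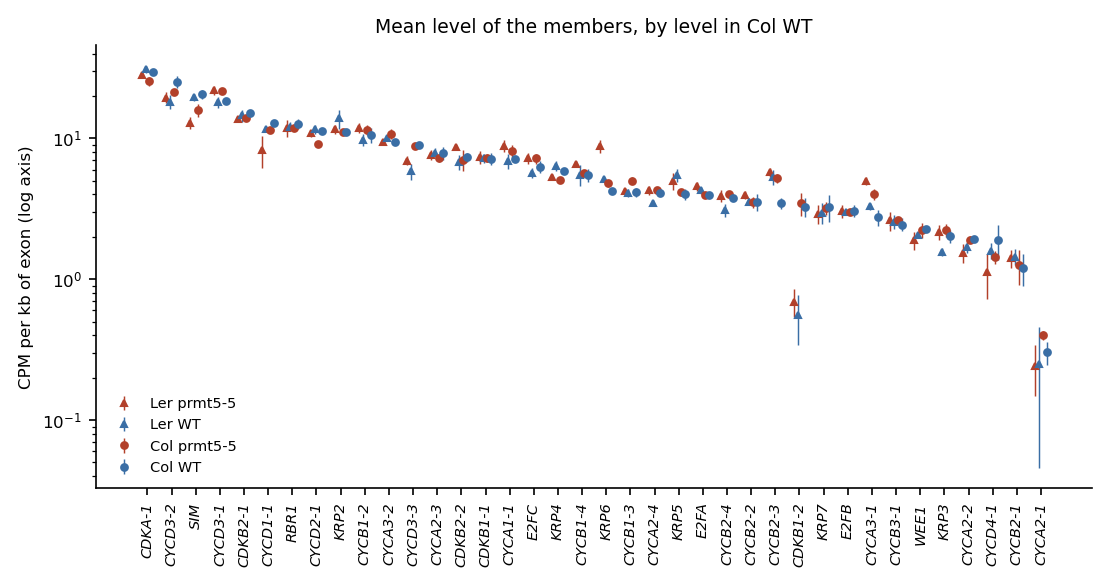
Mean level of the 38 members in CPM per kb of exon (log axis, bars are SD, n = 3) in Ler prmt5-5, Ler WT, Col prmt5-5 and Col WT, ordered by Col WT. CDKA-1 stands at the top with 29.4 CPM per kb in Col WT, CYCA2-1 at the bottom with 0.302, and CDKB1-2 has its Ler symbols far below its Col symbols.

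The question of the parental comparisons was how prmt5-5 changed these genes in each accession. In Ler, 12 of 38 members passed the test (adjusted p under 0.05), 9 upward and 3 downward. In Col, 6 of 38 passed, 3 upward and 3 downward. Over all 22924 genes tested, 36.1% were called in Ler, 19.1% upward and 17% downward. In Col it was 27.2%, 14.8% upward and 12.4% downward. The members' shares in either direction, 31.6% in Ler and 15.8% in Col, were below these. By direction, the 9 of 38 that rose in Ler were a larger share than 19.1%, and the other counts were smaller shares. These counts were not tested as a set. The median log2 fold change of the members was 0.03 in Ler and 0.01 in Col, beside 0.01 over all genes in each. The changes were small: the log2 fold changes of all 38 members lay between -0.59 and 0.79 in Ler and between -0.38 and 0.58 in Col. All 18 calls had prmt5-5 and WT libraries that did not overlap. With 3 libraries per group a call makes such separation likely, so it is no separate support. The same count was not made over all genes called.

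**Figure D2:**
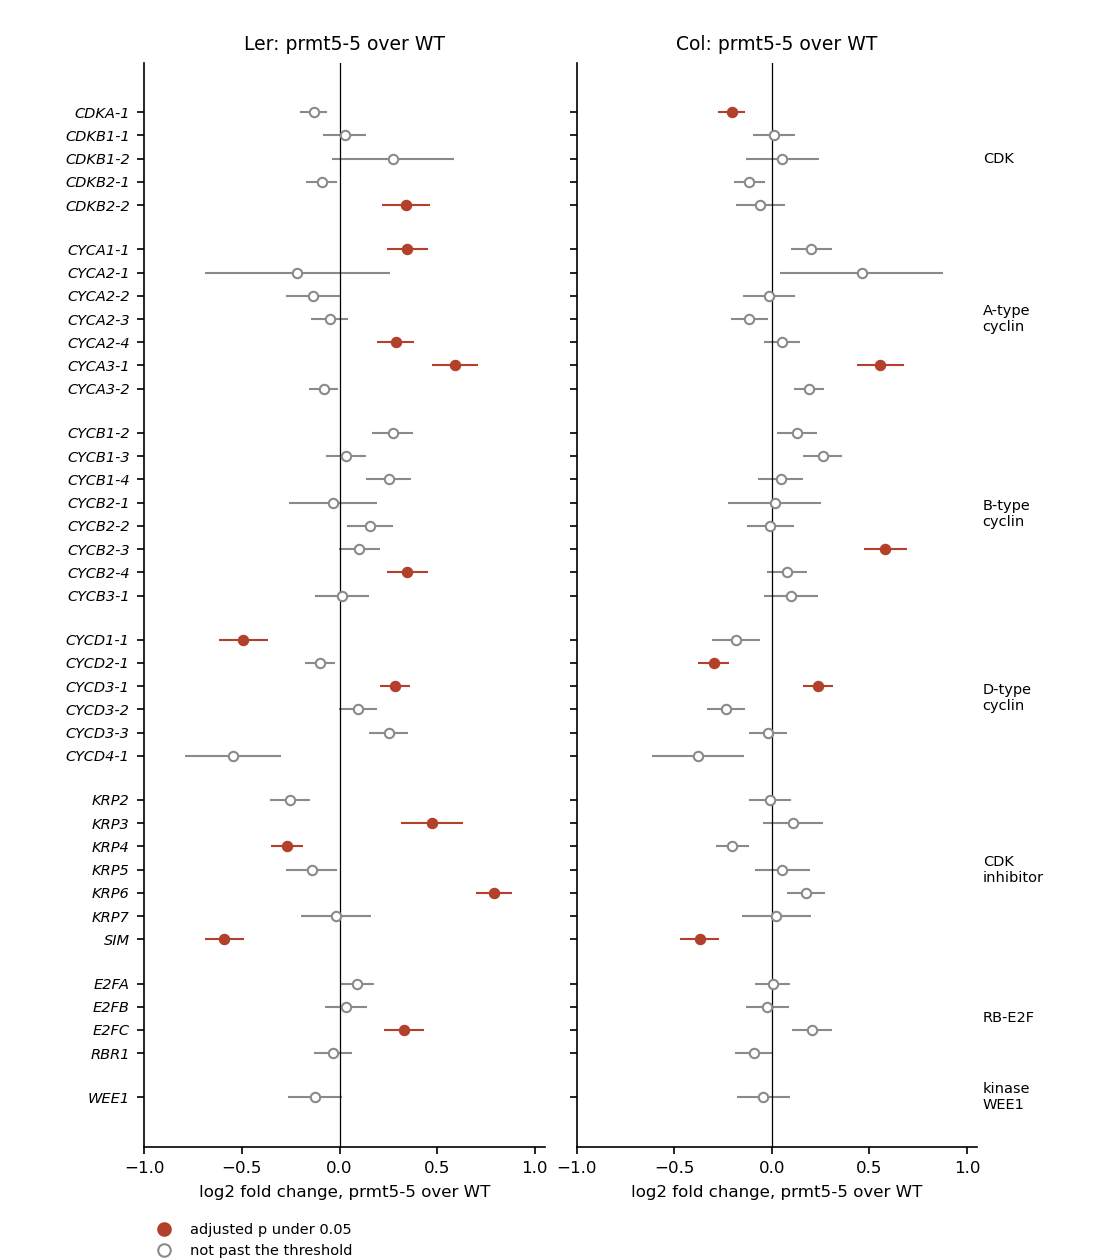
Log2 fold change of prmt5-5 over WT (bars are SE, n = 3 per group) for the 38 members by role, Ler on the left and Col on the right; filled symbols have an adjusted p under 0.05. The called members in Ler run from SIM at -0.59 to KRP6 at 0.79, and in Col from SIM at -0.37 to CYCB2-3 at 0.58.

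Among the CDK genes, the mitotic kinase gene CDKB2-2 (AT1G20930) rose by 0.34 in Ler prmt5-5 on the log2 scale. CDKA-1 (AT3G48750) fell by 0.21 in Col prmt5-5 and gave -0.13 without passing in Ler. The Col call of CDKA-1 was lost under 7 of 17 alternatives, among them no filter on low counts and the omission of single Col libraries other than prmt5-5 replicate 1 (highest adjusted p = 0.148). The other 3 CDK genes passed in neither accession.

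Of the A-type cyclin genes, 3 of 7 rose in Ler (CYCA3-1, CYCA1-1 and CYCA2-4) and 1 of 7 in Col (CYCA3-1), and 0 fell. CYCA3-1 (AT5G43080, chr5:17292952-17295024, plus strand), of a subgroup known from the G1 to S transition, had 8.39, 7.84 and 7.32 CPM in Ler prmt5-5, against 5.55, 5.06 and 5.00 CPM in Ler WT. In Col it had 6.90, 6.36 and 5.76 CPM in prmt5-5, against 3.70, 4.75 and 4.53 CPM in WT. All mutant libraries lay above all WT libraries of their accession, and the log2 fold change was 0.59 (SE 0.12, adjusted p = 0.00153) in Ler and 0.56 (SE 0.12, adjusted p = 0.00407) in Col. CYCA1-1 (AT1G44110), a mitotic cyclin gene, rose by 0.35 and CYCA2-4 (AT1G80370) by 0.29 in Ler.

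Of the B-type cyclin genes, 1 of 8 rose in each accession, CYCB2-4 (AT1G76310) in Ler by 0.35 and CYCB2-3 in Col. CYCB2-3 (AT1G20610, chr1:7134659-7137828, minus strand), a mitotic cyclin gene, had 10.4, 11.3 and 9.65 CPM in Col prmt5-5, against 6.36, 6.98 and 7.53 CPM in Col WT, a log2 fold change of 0.58 (SE 0.11, adjusted p = 0.00172). In Ler its libraries overlapped, with 11.2, 10.9 and 12.5 CPM in prmt5-5, against 12, 9.51 and 10.6 CPM in WT. Col WT was thus the low group, and the other 3 groups lay together. Stretches of 172 and 179 bases of CYCB2-3 align at 99.4% identity to the neighbouring locus AT1G20590, which had at most 5 counts in any parental library. A stretch of 207 bases of CYCB1-2, which passed in neither accession, aligns at 95.2% identity to AT1G34460. That locus rose by 1.58 in Col prmt5-5 (SE 0.21, adjusted p = 9.21e-05) and gave 0.51 in Ler without passing. Whether reads of CYCB1-2 and AT1G34460 were mixed was not tested.

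Of the D-type cyclin genes, 1 of 6 rose in both accessions, CYCD3-1, and 1 fell in each, CYCD1-1 in Ler and CYCD2-1 in Col. CYCD3-1 (AT4G34160), a cyclin of proliferating leaf cells that responds to cytokinin, had 44.6, 39.5 and 39.0 CPM in Ler prmt5-5, against 37.3, 31.2 and 32.7 CPM in Ler WT. In Col it had 41.1, 41.1 and 39.6 CPM in prmt5-5, against 34.8, 35.1 and 33.5 CPM in WT. The log2 fold change was 0.28 (SE 0.08, adjusted p = 0.0107) in Ler and 0.24 (SE 0.08, adjusted p = 0.0337) in Col. In Col the call was lost when any 1 of the 6 Col libraries was left out (highest adjusted p = 0.113). Part of CYCD3-1 overlaps AT4G34150 on the same strand, which itself rose by 0.48 in Ler prmt5-5 (SE 0.17, adjusted p = 0.0399) and gave 0.17 in Col without passing, and the part of that gene's reads in the counts of CYCD3-1 was not tested. CYCD1-1 (AT1G70210) had 26.8, 17.3 and 18.1 CPM in Ler prmt5-5, against 29.5, 29.3 and 29.0 CPM in Ler WT. It fell by 0.49 (SE 0.12, adjusted p = 0.00706), but replicate 1, the library that stood apart over all genes, lay close to WT, and without it the log2 fold change was -0.72. Without that library E2FC, CYCA2-4 and KRP3 no longer passed in Ler, at 0.26, 0.23 and 0.40 on the log2 scale, and KRP6, SIM and CYCA3-1 gave 0.83, -0.63 and 0.54. CYCD2-1 (AT2G22490) had 16.6, 15.8 and 15.7 CPM in Col prmt5-5, against 20.5, 19.7 and 18.9 CPM in Col WT. It fell by 0.30 in Col (SE 0.08, adjusted p = 0.0109) and gave -0.10 in Ler without passing.

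The CDK inhibitor genes held the largest change in Ler among the members. KRP6 (AT3G19150, chr3:6616330-6617951, minus strand) had 12.8, 15.1 and 12.5 CPM in Ler prmt5-5, against 7.86, 7.85 and 7.57 CPM in Ler WT, and rose by 0.79 (SE 0.09, adjusted p = 2.74e-05). KRP6 is known in Arabidopsis for its role in the male germ line, where its protein is removed before division. KRP3 (AT5G48820) also rose in Ler, by 0.47, while KRP4 (AT2G32710) fell by 0.27. SIM (AT5G04470, chr5:1266625-1267416, minus strand) fell in both accessions. It had 10.8, 10.8 and 9.11 CPM in Ler prmt5-5, against 15.1, 14.8 and 16.6 CPM in Ler WT, a log2 fold change of -0.59 (SE 0.10, adjusted p = 0.000562). In Col it had 11.1, 12.9 and 13.7 CPM in prmt5-5, against 16.7, 17.2 and 14.9 CPM in WT, a log2 fold change of -0.37 (SE 0.10, adjusted p = 0.0141). In Col the call was lost without WT replicate 1 or prmt5-5 replicate 1 (highest adjusted p = 0.0745). SIM overlaps an opposite-strand locus, and how the counting used strand was not given in the sources used here.

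In the RBR1-E2F module, E2FC (AT1G47870), described as a repressing E2F, rose by 0.33 in Ler. E2FA, E2FB and RBR1 passed in neither accession, with log2 fold changes from -0.09 to 0.09. WEE1 did not pass either, at -0.13 in Ler and -0.04 in Col.

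CYCA3-1, CYCD3-1 and SIM were called in both accessions, each in the same direction, which is 25% of the Ler calls and 50% of the Col calls. The matching shares over all genes were not counted, so these percentages are not read as a trait of the members. A further 23 members were called in neither. KRP6, SIM, CYCA3-1 and CYCD1-1 in Ler, and CYCB2-3, CYCA3-1 and CYCD2-1 in Col, passed under every alternative run. The other 8 calls in Ler were lost in a fit of the Ler groups alone, which called 4 members, and when some single library of Ler (for CDKB2-2 also Col WT replicate 2 or 3) was left out. The Ler count was 7 without Ler WT replicate 2 and 6 without Ler WT replicate 3, and the Col count was 3 without Col WT replicate 1.

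**Figure D3:**
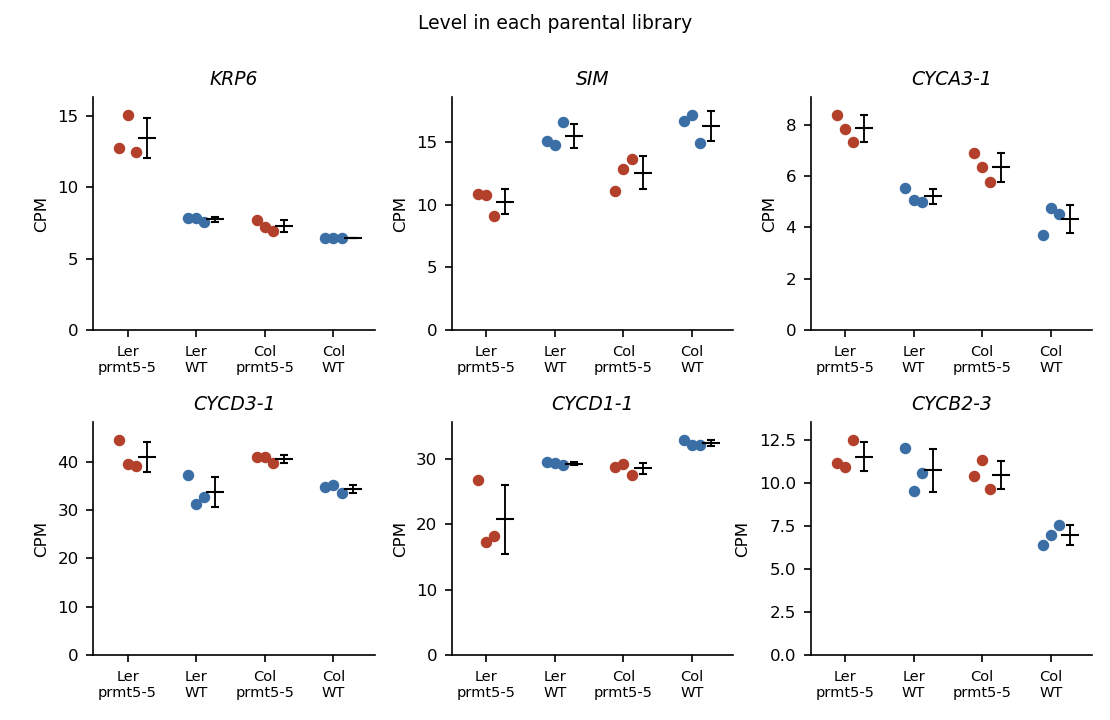
Level in CPM of 6 members in each parental library (points), with mean and SD (black, n = 3), for Ler prmt5-5, Ler WT, Col prmt5-5 and Col WT. KRP6 is high in the 3 Ler prmt5-5 libraries (12.5 to 15.1 CPM), and for CYCB2-3 the 3 Col WT libraries (6.36 to 7.53 CPM) are the low ones.

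Members with an MSA core upstream were compared with the other 19 as a description. In Ler, 6 of the 19 with a core rose and 1 fell, against 3 that rose and 2 that fell among those without. In Col, 3 with a core rose (CYCA3-1, CYCB2-3 and CYCD3-1) and 0 fell, against 0 that rose and 3 that fell among those without (CDKA-1, CYCD2-1 and SIM). Over all genes tested that have the window, 20.7% of the 5279 with a core rose and 15.7% fell in Ler prmt5-5, against 18.9% and 17.8% of the 16449 without. In Col the shares were 16.1% and 11.6% with a core, against 14.6% and 13.0% without. The split of the members was not tested. Beside these counts, the summed level of the 5 meristem marker genes was 5.79 to 6.38 CPM in the Col prmt5-5 libraries, against 3.75 to 4.73 CPM in Col WT. In Ler the sums overlapped, at 5.08 to 6.33 CPM in prmt5-5 and 4.47 to 6.18 CPM in WT. The root stem cell gene PLT2 rose in both accessions (0.69 in Ler, 0.79 in Col), while STM and PLT1 did not pass in either and WUS and CLV3 were too low to test. Root marker sums were 2900 to 3007 CPM in Ler prmt5-5, against 3824 to 4218 CPM in Ler WT, where PYK10 (-0.45) and EXPA7 (-0.78) fell among 6 genes. In Col they were 1975 to 2502 CPM in prmt5-5, against 2249 to 2615 CPM in WT, and SCR fell by 0.30 while EXPA7 gave 0.45 without passing. Among 3 leaf genes, LHCB1.3 fell by 0.69 in Ler and 0.53 in Col, RCA rose by 0.37 in Ler, and RBCS1A gave -0.07 in Col. The floral organ and seed genes were near the limit of detection. Their sums were 0.859 to 4.72 CPM in Ler prmt5-5, against 1.21 to 5.24 CPM in Ler WT, and AP1 fell in Ler. In Col the sums were 0.211 to 0.310 CPM in prmt5-5, against 0.628 to 1.26 CPM in WT, and 0 of the 4 genes tested passed. The part of these markers in the members' changes was not tested.

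Around the members, the pathway was summarised from further gene lists, whose counts were not tested as sets. Over all genes tested, 19.1% rose and 17% fell in Ler, and 14.8% rose and 12.4% fell in Col. Of 11 DNA replication genes, 3 rose in Ler and 4 in Col, and 0 fell. TSO2, a subunit gene of ribonucleotide reductase, rose by 0.42 in Ler and 0.39 in Col. MCM4, of the replicative helicase, rose by 0.26 in Ler and 0.34 in Col, and MCM5 by 0.27 and 0.23. MCM7 passed in Col alone, at 0.31. Of 5 E2F partner and DEL genes, 1 rose in Ler and 2 in Col: DPA, a dimer partner of E2F, by 0.55 in Ler and 0.53 in Col, and DEL2 by 0.89 in Col. DPB, next by p in Ler, gave 0.17 without passing. Of 4 named SIAMESE-related inhibitor genes, 2 rose in Ler (SMR7 by 1.58 and SMR5 by 0.78) and 1 in Col (SMR5 by 1.4). Both are inhibitors known to respond to DNA damage, and SMR1 gave -0.23 in Col without passing. SMR5 was low throughout, with 1.4, 0.918 and 0.990 CPM in Ler prmt5-5, against 0.631, 0.709 and 0.609 CPM in Ler WT.

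Of 5 activators of the anaphase-promoting complex, CDC20.1 rose by 0.55 in Ler and 2 fell there, CCS52A1 by 0.33 and CDC20.2 by 0.42. In Col, CCS52A1 alone passed and fell by 0.25, and CDC20.1 gave 0.19. CCS52A1 promotes endoreduplication. The CDC20 genes are adjacent and similar, so reads could be split between them. Of 7 CDK activation and accessory genes, CYCH-1 rose by 0.45 in Ler and 0.29 in Col, and CDKF-1 fell by 0.34 in Ler and 0.23 in Col. CKS1 also fell in Ler, by 0.31. Of 4 MYB3R genes, MYB3R1 rose by 0.42 in Ler, MYB3R3 gave -0.19 there, and 0 passed in Col (1 at an unadjusted p under 0.05), where MYB3R5 gave 0.35 and MYB3R4 -0.11. Of 5 cytokinesis and spindle genes, 0 passed in either accession by edgeR (2 in Ler and 0 in Col at an unadjusted p under 0.05). KNOLLE gave 0.25 in Ler and 0.21 in Col, AUR2 gave 0.30 in Ler and AUR1 gave 0.18 in Col. Over all 22924 genes tested, 10466 in Ler and 8958 in Col had an unadjusted p under 0.05.

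The interaction asked whether prmt5-5 acted differently in Ler than in Col. It passed for 1 of 38 members, KRP6, against 3.23% of all genes called. The log2 effect on KRP6 was 0.62 higher in Ler than in Col (SE 0.13, adjusted p = 0.0240). Its Col libraries held 7.71, 7.21 and 6.95 CPM in prmt5-5, against 6.45, 6.48 and 6.43 CPM in WT, so the mutant libraries lay higher in both accessions. The call was lost without Col WT replicate 3, Col prmt5-5 replicate 2 or 3, Ler WT replicate 3 or Ler prmt5-5 replicate 2 (highest adjusted p = 0.0776), while 2 members were called without Ler prmt5-5 replicate 1. Among the pathway lists the interaction passed for MYB3R1 (0.45) in 1 of 4 MYB3R genes and for 0 genes of the other 6 lists. The next members by p were CYCB2-3 at -0.48 (SE 0.15, adjusted p = 0.112), CYCA3-2 at -0.27 (SE 0.11, adjusted p = 0.190) and CYCD3-2 at 0.33 (SE 0.14, adjusted p = 0.219), and these did not pass. CYCA3-2 had 17.0, 17.5 and 16.6 CPM in Ler prmt5-5, against 18.8, 17.3 and 17.8 CPM in Ler WT. It had 20.8, 17.8 and 19.5 CPM in Col prmt5-5, against 16.3, 17.1 and 17.5 CPM in Col WT.

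KRP6 was also examined for its place in the genome, because the Ler mutant was made by backcrossing from Col. A neighbouring gene was usable with at least 100 allele counts per genotype and a Ler share of 20% to 80% in WT F1. This rule bounds the WT F1 medians in advance. Over the 10 nearest usable genes around KRP6, the median Ler share of allele counts was 50.2% in prmt5-5 F1 hybrids and 49.2% in WT F1 hybrids. Across the members these medians ran from 45.3% (CYCA3-1) to 52.6% in prmt5-5 F1, and 0 of 38 lay under 40%. KRP6 itself had fewer than 50 allele counts over all 12 hybrid libraries, so its alleles could not be compared.

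The accessions themselves were compared within each genotype. The processing notes name TAIR10 as the genome for alignment, and its part in differences between Ler and Col was not tested. In WT, Ler differed from Col in 7 of 38 members, 3 higher and 4 lower, against 30% of all genes called, 14.8% higher and 15.2% lower. In prmt5-5 it was 6 of 38, 2 higher and 4 lower, against 28.7% of all genes, 14.3% higher and 14.4% lower. The largest difference in both was in CDKB1-2 (AT2G38620, chr2:16152473-16154086, plus strand), a B-type CDK gene that is known to act together with its close relative CDKB1-1. It had 1.23, 0.634 and 0.688 CPM in Ler WT, against 4.39, 4.78 and 5.91 CPM in Col WT. In prmt5-5 it had 0.989, 0.868 and 1.33 CPM in Ler, against 5.66, 6.09 and 4.19 CPM in Col. The groups were far apart in both genotypes, with a log2 fold change of -2.54 in WT (SE 0.25, adjusted p = 2.78e-06) and -2.32 in prmt5-5 (SE 0.23, adjusted p = 3.06e-06). CDKB1-1 gave 0.01 and 0.02 in the same comparisons. CDKB1-2 overlaps AT2G38630 on the other strand, which had 13.5 ± 0.553 CPM in Ler WT and 13.0 ± 0.960 CPM in Col WT (SD, n = 3 each).

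The D-type cyclin genes CYCD3-3 and CYCD3-2 were lower in Ler WT. CYCD3-3 (AT3G50070) had 9.66, 7.80 and 7.68 CPM in Ler WT, against 12.6, 13.8 and 12.7 CPM in Col WT, a log2 fold change of -0.62 (SE 0.10, adjusted p = 0.000265). In prmt5-5 it had 10.7, 9.28 and 10.01 CPM in Ler, against 13.2, 12.5 and 12.7 CPM in Col, a log2 fold change of -0.35 (SE 0.10, adjusted p = 0.0136). The call in prmt5-5 was lost without Ler prmt5-5 replicate 2. CYCD3-2 (AT5G67260) had 34.9, 28.4 and 28.7 CPM in Ler WT, against 38.3, 46.7 and 42.5 CPM in Col WT, a log2 fold change of -0.47 (SE 0.10, adjusted p = 0.00211). CYCB2-3 was higher in Ler WT by 0.62 (SE 0.11, adjusted p = 0.000683), with the library values given above. The other WT calls were KRP5 (0.47) and KRP2 (0.31), both inhibitor genes, and CYCB2-4 (-0.30), and the libraries of KRP2 overlapped between the accessions. Of 17 alternatives, KRP5 lost its call under 3 (highest adjusted p = 0.0807), KRP2 under 7 (0.182) and CYCB2-4 under 11 (0.179).

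Among prmt5-5 seedlings, KRP6 was higher in Ler than in Col by 0.89 (SE 0.09, adjusted p = 4.92e-06), and the groups lay apart, at 12.5 to 15.1 CPM in Ler prmt5-5 and 6.95 to 7.71 CPM in Col prmt5-5. CYCD1-1 had a log2 fold change of -0.45 (SE 0.12, adjusted p = 0.0130), with 26.8, 17.3 and 18.1 CPM in Ler and 28.8, 29.2 and 27.6 CPM in Col. It was -0.69 without replicate 1 of Ler prmt5-5, and leaving out either of its other libraries lost the call (highest adjusted p = 0.0588). CYCD2-1 (0.24) and SIM (-0.29) were the remaining calls, lost under 5 and 12 of 17 alternatives (highest adjusted p = 0.110 and 0.193). CDKB1-2, CYCD3-3, CYCB2-3 and CYCD3-2 in WT, and CDKB1-2 and KRP6 in prmt5-5, passed under every alternative run. The WT count was 4 without Col WT replicate 1, Col WT replicate 3 or Ler WT replicate 1. The prmt5-5 count was 2 without replicate 2 of Ler prmt5-5, 3 without its replicate 3 and 3 in a fit of those groups alone.

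Pathway genes also differed between the accessions, beside 14.8% of all genes higher and 15.2% lower in Ler WT. In prmt5-5 these shares of all genes were 14.3% and 14.4%, and the lists' counts were not tested as sets. In WT, 2 of 11 DNA replication genes were lower in Ler (PCNA2 by 0.57 and TSO2 by 0.41 on the log2 scale) and 3 were lower in prmt5-5, among them PCNA2 by 0.57 and MCM7 by 0.41. MAD2, a spindle checkpoint gene, was lower in Ler by 0.66 in WT and by 0.70 in prmt5-5. DEL2, an E2F-like gene, was higher in Ler by 1.29 in WT and by 0.49 in prmt5-5. Of 4 MYB3R genes, 2 were higher and 1 lower in Ler WT (MYB3R5 at 0.77 and MYB3R1 at -0.43), and 1 was higher in Ler prmt5-5 (MYB3R5 at 0.41). CDKF-1 was lower in Ler by 0.39 in WT and by 0.49 in prmt5-5. The SIAMESE-related and anaphase-promoting complex lists had 0 calls in either genotype by edgeR. At an unadjusted p under 0.05 they held 1 and 3 genes in WT and 0 in prmt5-5. Over all 22924 genes tested, 9116 in WT and 8921 in prmt5-5 were under that unadjusted threshold.

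In the hybrids, 29 of 38 members passed the filter on low counts. Of these, 0 passed for the prmt5-5 effect in F1 Ler x Col and 0 in F1 Col x Ler by edgeR, with 3 and 1 at an unadjusted p under 0.05, and 0 in each by DESeq2. Over all 17301 genes tested, 14.9% were called in F1 Ler x Col and 5.81% in F1 Col x Ler. At an unadjusted p under 0.05 it was 4957 of these genes in F1 Ler x Col and 3385 in F1 Col x Ler. DESeq2 called 2907 of 19162 genes in F1 Ler x Col and 1446 of 18662 in F1 Col x Ler. Leaf marker sums were lower in every prmt5-5 hybrid library, at 7953 to 15168 CPM against 16565 to 23367 CPM in WT for F1 Ler x Col, and at 10081 to 14521 CPM against 16863 to 22900 CPM in WT for F1 Col x Ler. Their part in the members' values was not tested.

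In F1 Ler x Col, the smallest p belonged to CYCA3-1, one of the genes raised in both parents. It had 34.3, 33.5 and 27.6 CPM in prmt5-5, against 29.6, 22.7 and 16.9 CPM in WT, a log2 fold change of 0.50 (SE 0.19, adjusted p = 0.0873), and the groups overlapped. CYCA3-2 had 12.7, 14.6 and 18.1 CPM in prmt5-5, against 10.2, 11.5 and 10.3 CPM in WT (0.48, SE 0.21, adjusted p = 0.143). KRP4 had 9.12, 7.10 and 7.17 CPM in prmt5-5, against 11.8, 8.34 and 12.8 CPM in WT (-0.47, SE 0.21, adjusted p = 0.144). CDKB1-1 had 2.43, 1.51 and 1.87 CPM in prmt5-5, against 3.10, 2.85 and 2.80 CPM in WT (-0.61, SE 0.32, adjusted p = 0.234). Groups of CYCA3-2 and CDKB1-1 did not overlap, but neither passed. Leaving out F1 Ler x Col WT replicate 1 or 2 gave 1 call in this cross. A fit with the replicate number as a block also gave 1 call, CYCA3-1.

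In F1 Col x Ler, CDKB2-2 had 28.1, 24.6 and 24.3 CPM in prmt5-5, against 40.6, 36.7 and 29.4 CPM in WT (-0.46, SE 0.16, adjusted p = 0.125). WEE1 had 5.19, 7.21 and 5.84 CPM in prmt5-5, against 8.86, 6.40 and 9.71 CPM in WT (-0.47, SE 0.23, adjusted p = 0.28). These groups were apart for CDKB2-2 and overlapped for WEE1. SIM had 22.5, 17.4 and 20.6 CPM in prmt5-5, against 16.7, 30.3 and 33.3 CPM in WT (-0.43, SE 0.24, adjusted p = 0.345). CYCD4-1 had 4.21, 4.35 and 4.32 CPM in prmt5-5, against 4.61, 7.04 and 4.94 CPM in WT (-0.38, SE 0.25, adjusted p = 0.440). Of the genes called in both parents, CYCA3-1 gave 0.17 and CYCD3-1 gave 0.04 in this cross, and SIM gave -0.19 and CYCD3-1 gave 0.03 in F1 Ler x Col.

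The difference between the hybrid effects (F1 Ler x Col minus F1 Col x Ler) passed for 0 of 29 members, and 0% of all genes were called by edgeR. At an unadjusted p under 0.05 it was 1 member, CYCA3-2, at 0.70 (SE 0.30, adjusted p = 0.977), against 756 of 17301 genes. DESeq2 called 0 members, against 12 of 17662 genes. CYCA3-2 had 10.4, 11.3 and 8.64 CPM in F1 Col x Ler prmt5-5, against 16.3, 10.5 and 9.55 CPM in its WT. The next by p were CDKA-1 (-0.43, SE 0.25), CDKB2-2 (0.32, SE 0.23) and KRP4 (-0.40, SE 0.30), all with an adjusted p of 0.977. CDKA-1 had 18.8, 19.5 and 15.9 CPM in F1 Ler x Col prmt5-5, against 26.7, 18.4 and 23.9 CPM in its WT, and 24.3, 23.5 and 24.3 CPM in F1 Col x Ler prmt5-5, against 17.4, 22.5 and 25.8 CPM in its WT. CDKB2-2 had 25.5, 27.7 and 27.3 CPM in F1 Ler x Col prmt5-5, against 36.4, 28.7 and 24.6 CPM in its WT. KRP4 had 9.02, 8.10 and 8.64 CPM in F1 Col x Ler prmt5-5, against 8.86, 10.4 and 8.07 CPM in its WT.

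The alleles of the hybrids were then compared within each library, where both share the same cells. The Ler share is the percentage of a gene's allele counts assigned to Ler. The 9 members CDKB2-1, CYCA2-2, CYCB1-2, CYCB1-4, CYCB3-1, CYCD2-1, KRP3, KRP6 and E2FC had at most 21 allele counts over the 12 libraries and could not be read. Of the 28 members with at least 50 counts in each hybrid group, 26 had a Ler share between 43.8% (CYCD1-1) and 58.3% (KRP2) in WT F1. The median share over the 28 was 49.8% in prmt5-5 F1 and 50.6% in WT F1. Of all allele counts of a hybrid library, 48.0% to 48.9% were assigned to Ler. CDKB1-2 and CYCA3-2 stood outside the range of 43.8% to 58.3%.

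**Figure D4:**
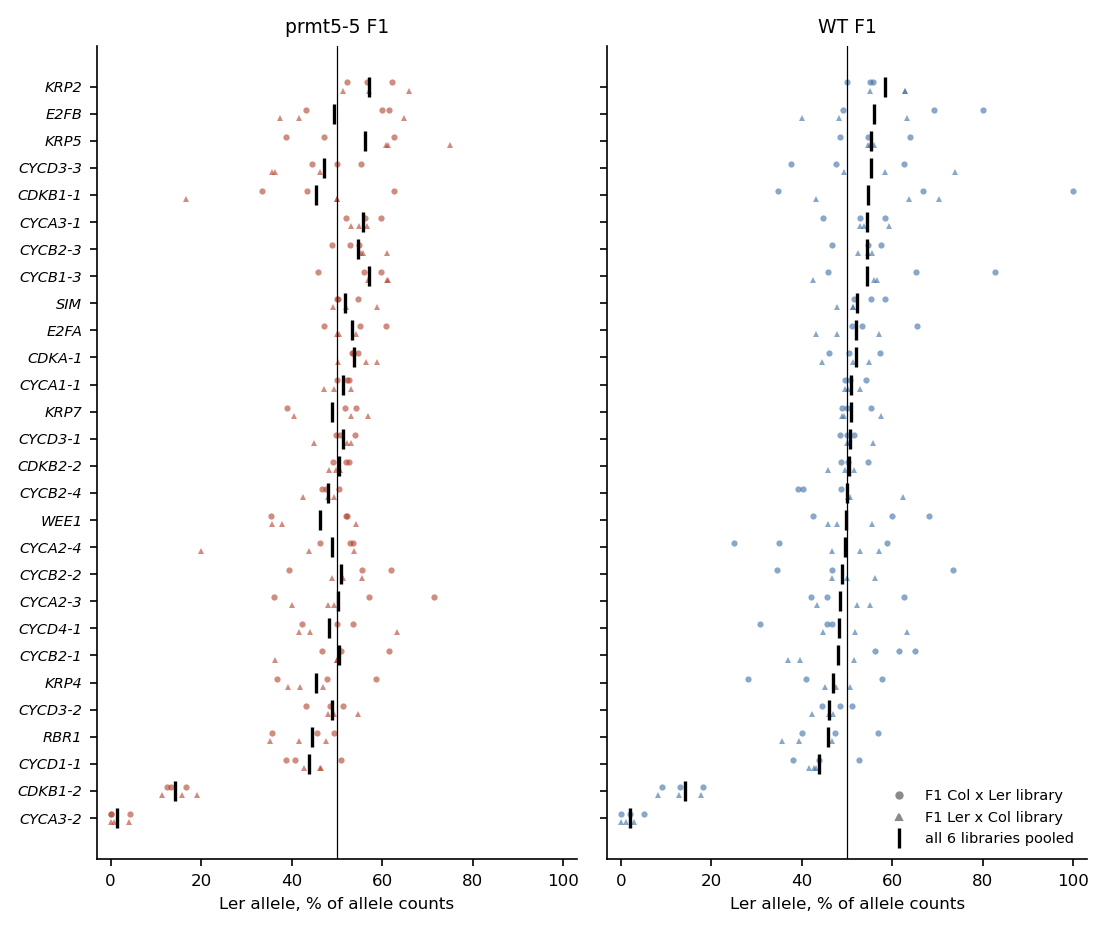
Ler allele as a percentage of allele counts for 28 members in prmt5-5 F1 (left) and WT F1 (right); points are libraries by cross and black bars pool the 6 libraries of a genotype. The bars of 26 members lie near 50%, while CDKB1-2 (14.2% in prmt5-5 F1 and 14.3% in WT F1) and CYCA3-2 (1.51% and 2.01%) lie far below.

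The Ler share of CDKB1-2 was 11.4% to 19% with a median of 14.5% over the 6 prmt5-5 F1 libraries, and 8.33% to 18.2% with a median of 13.0% over the 6 WT F1 libraries. By cross, 72 of 498 counts were from Ler in F1 Ler x Col WT (14.5%, 95% exact binomial interval 11.5% to 17.9%) and 32 of 230 in F1 Col x Ler WT (13.9%, 9.72% to 19.1%). Every allele count of CDKB1-2 in every hybrid library was even. If each read of a pair was counted, the intervals, which cover counting error only, understate the error. Every library of both crosses was low. The Ler over Col allele difference was -2.59 in prmt5-5 F1 (SE 0.19, adjusted p = 5.09e-13) and -2.60 in WT F1 (SE 0.19, adjusted p = 7.94e-13), beside -2.54 between the WT parents. The parental minus the allelic difference was 0.07 (SE 0.39) and did not pass. The part of alignment to TAIR10 in the low Ler values of CDKB1-2, in parents and in hybrids, was not tested.

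CYCA3-2 (AT1G47210, chr1:17300691-17302914, plus strand), the other CYCA3 gene among the members, had hardly any counts from Ler. The Ler share was 0% to 4.32% with a median of 0.368% over the 6 prmt5-5 F1 libraries, and 0% to 5.17% with a median of 1.65% over the 6 WT F1 libraries. In prmt5-5 F1, 8 of 534 counts were from Ler in F1 Ler x Col (1.5%, interval 0.649% to 2.93%) and 6 of 395 in F1 Col x Ler (1.52%, 0.559% to 3.28%). In WT F1, 10 of 589 were from Ler in F1 Ler x Col (1.70%, 0.817% to 3.10%) and 8 of 306 in F1 Col x Ler (2.61%, 1.14% to 5.09%). These intervals cover counting error only. Of allele counts from 1 to 19, 74.6% were even, and if each read of a pair was counted these intervals understate the error. The allele difference was -5.95 in prmt5-5 F1 (SE 0.31, adjusted p = 3.28e-18) and -5.48 in WT F1 (SE 0.30, adjusted p = 3.91e-17).

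Between the parents CYCA3-2 did not differ in this way, with 18.8, 17.3 and 17.8 CPM in Ler WT, against 16.3, 17.1 and 17.5 CPM in Col WT. The parental minus the allelic difference was 5.60 (SE 0.29, adjusted p = 2.11e-12). The sources used here give no rule for assigning reads to alleles, and whether it treated both alleles of CYCA3-2 alike was not tested. The 10 nearest usable genes around CYCA3-2 had a median Ler share of 49.6% in prmt5-5 F1 and 49.3% in WT F1. Usable genes had a Ler share of 20% to 80% in WT F1, so genes as low as CYCA3-2 were left out beforehand. These medians therefore do not show whether other genes there were as low.

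Over all 29 members tested, 6 differed between alleles in prmt5-5 F1, against 35.3% of all genes, and 5 in WT F1, against 31.5%. The remaining calls were small. CYCA3-1 was higher from Ler by 0.33 in prmt5-5 F1 (SE 0.09, adjusted p = 0.00510), with a share of 51.9% to 59.8% and a median of 55.6% over the libraries. CYCD1-1 gave a log2 allele difference of -0.35 in prmt5-5 F1 (SE 0.10, adjusted p = 0.00734) and of -0.33 in WT F1 (SE 0.11, adjusted p = 0.0196). Its share was 38.7% to 50.9% with a median of 44.5% in prmt5-5 F1, and 38.1% to 52.6% with a median of 42.9% in WT F1. KRP2 was higher from Ler by 0.41 in prmt5-5 F1 and 0.40 in WT F1, CYCB2-3 by 0.27 in prmt5-5 F1, and CYCD3-2 was lower by 0.20 in WT F1 (SE 0.07, adjusted p = 0.02). CYCD3-2 had a share of 42.2% to 51.1% with a median of 46.4% in the WT F1 libraries. The calls of CYCA3-2, CDKB1-2 and CYCA3-1 held under every alternative run, and each of the others was lost under 1 to 3 of 15 (highest adjusted p = 0.164). The WT F1 count was 3 without F1 Col x Ler WT replicate 2 or F1 Ler x Col WT replicate 2.

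In WT F1 the next highest pooled Ler shares after KRP2 were 56.0% for E2FB and 55.3% for KRP5, and the lowest after CYCA3-2 and CDKB1-2 was 43.8% for CYCD1-1. The change of the allele ratio by prmt5-5 passed for 0 of 29 members by edgeR, against 3.93% of all genes called. At an unadjusted p under 0.05 it was 0 members, against 2106 of 16644 genes. The smallest p belonged to CYCD3-3, at -0.47 (SE 0.31, adjusted p = 0.612), with a Ler share of 35.7% to 55.3% (median 45.4%) in prmt5-5 F1 and 37.5% to 73.9% (median 53.8%) in WT F1. CYCD3-2 followed at 0.14 (SE 0.10, adjusted p = 0.633), with 43.2% to 54.5% (median 48.8%) in prmt5-5 F1. CDKB1-1 gave -0.55 (SE 0.50, adjusted p = 0.789), with 16.7% to 62.5% (median 46.7%) in prmt5-5 F1 and 34.8% to 100% (median 65.2%) in WT F1, over 176 and 245 counts in all. E2FB gave -0.41 (SE 0.42, adjusted p = 0.820), with 37.5% to 64.7% (median 51.6%) in prmt5-5 F1 and 40% to 80.0% (median 56.1%) in WT F1. Libraries of the genotypes overlapped in all 4.

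**Figure D5:**
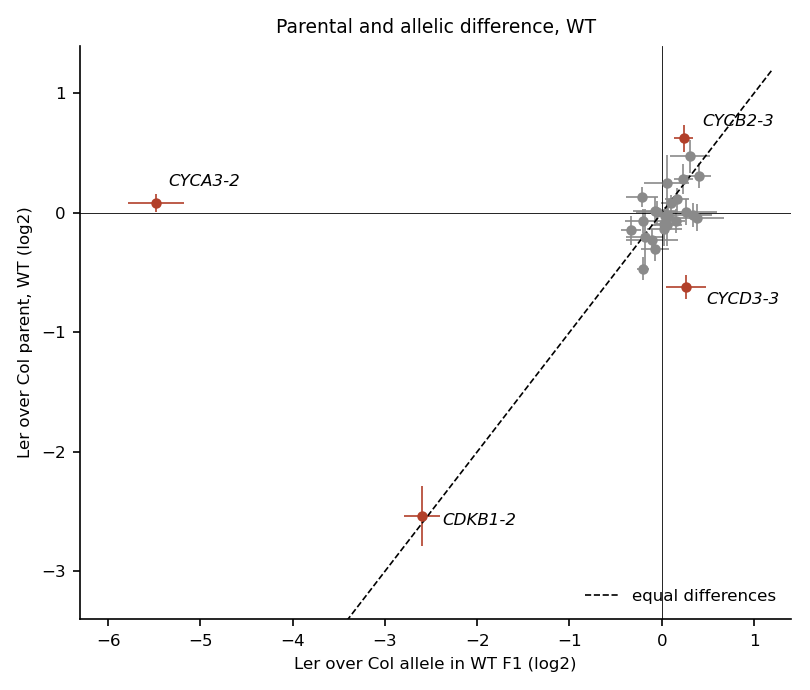
Ler over Col difference between WT parents (vertical, log2) against that between alleles in WT F1 (horizontal, log2) for 28 members, with SE bars; the dashed line marks equal differences. CDKB1-2 lies on the line at -2.54 and -2.60, CYCA3-2 lies far from it at 0.08 and -5.48, and the other members lie near the origin.

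The parental minus allelic difference in WT passed for 2 of 38 members, CYCA3-2 and CYCD3-3, against 9.27% of 21171 genes called. The allele fit held 16644 genes, and genes with few allele counts were not set apart within the 9.27%. The 9 members with at most 21 allele counts entered that fit through their parental counts, and their values are not read here. CYCD3-3 gave -0.88 (SE 0.26, adjusted p = 0.0377): it was lower in the Ler parent, at -0.62, and the Ler allele gave 0.26 in WT F1 without passing. Its call was lost without Col WT replicate 2 or 3, Ler WT replicate 2 or 3, F1 Col x Ler WT replicate 2 or 3, or F1 Ler x Col WT replicate 1 or 3, and with library totals in place of TMM (highest adjusted p = 0.283). CYCB2-3 at 0.39 (SE 0.16, adjusted p = 0.149) and CYCD3-2 at -0.26 (SE 0.12, adjusted p = 0.244) came next and did not pass. For CYCB2-3 the Ler share was 46.6% to 57.5% with a median of 54.6% in the WT F1 libraries.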

How the data were processed

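The authors deposited raw counts per gene, as single columns for parental libraries and as a pair of allele columns for hybrid libraries. Per the submitters' processing notes, reads (100 bp, per the labels' protocols) were handled with Trim Galore, FastQC and STAR 2.7.9a on TAIR10. Counting tool, annotation, strand use and allele rule: not given in the sources used here. Of 33602 genes, 3 without Ler values were left out.

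Counts were tested with edgeR 4.0.16 (quasi-likelihood, robust, TMM, filterByExpr, two-sided) in R 4.3.3, with Benjamini-Hochberg adjusted p under 0.05 over all genes tested. The 12 parental libraries were fitted together, the summed alleles of the 12 F1 libraries apart, and allele columns with library as a block and 1 normalisation factor per library. CPM are scaled to TMM-adjusted totals. DESeq2 1.42.0, other scalings, no filter, fewer groups, a replicate block and leaving out each library were alternatives. Scripts were tested on simulated data. Sequences come from RefSeq TAIR10.1, and copies were sought with BLAST 2.17.0. The members and lists were chosen with earlier results of these data known. Every called member is named, as are the 4 smallest p per comparison and, in part, the 2 smallest p per gene list of the parental comparisons.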

Additional observations from a re-analysis of the deposited data

Results flagged for a closer look

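The prmt5-5 effect on KRP6 differed between the accessions: the interaction test gave a log2 difference of 0.62, Ler minus Col. It was the 1 member of 38 for which this test passed (2.63%), against 3.23% of all genes called, so the members' share was not above that of other genes. The effect was 0.79 in Ler and 0.18 in Col, where it did not pass, and all 3 prmt5-5 libraries lay above all 3 WT libraries in each accession. The comparison rests on 3 libraries per group, and its dependence on single libraries is given with the result above.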

How the results depend on the processing

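Of 45 called member results, 19 were called under every alternative run, 26 lost the call under at least 1, and 0 reversed. Fitting the compared groups alone called 4 members for the prmt5-5 effect in Ler (12 in the full fit) and 3 for Ler against Col in prmt5-5 (6). The replicate block gave 1 in F1 Ler x Col (0 without it), and otherwise 13 in Ler, 5 in Col, 1 for the interaction, 6 and 5 for Ler against Col in WT and prmt5-5, and 0 for the other hybrid comparisons. The 1 hybrid member was CYCA3-1. Deviations of same-numbered libraries from their group means correlated at -0.22 to 0.51 in parents (median -0.08) and at -0.45 to 0.68 in F1 (median 0.07). Ler prmt5-5 with Ler WT gave 0.51, 0.46 and -0.08 for replicates 1, 2 and 3, and all 6 F1 pairs of replicate 1 were positive (0.10 to 0.47). Replicate 3 of F1 Col x Ler WT correlated at 0.61 with that of F1 Col x Ler prmt5-5 and at 0.68 with that of F1 Ler x Col WT. The latter 2 gave 0.56 with each other. For every 2 groups at least 1 same-numbered pair correlated under 0.1, and the labels name no shared origin, so the numbers were not taken to pair libraries. This does not show that no libraries share an origin, and the F1 Ler x Col count depends on the choice. Library totals in place of TMM gave 1 call for the parental minus allelic difference (2). Leaving out each library in turn gave 6 to 13 members in Ler, 3 to 7 in Col, 0 to 2 for the interaction, 4 to 8 for Ler against Col in WT and 2 to 7 in prmt5-5. It gave 0 to 1 in F1 Ler x Col, 0 in F1 Col x Ler and 0 for their difference, 3 to 5 for alleles in WT F1, 4 to 6 in prmt5-5 F1, 0 for the allele ratio change, and 1 to 2 for the parental minus allelic difference. The cause was not tested. TMM per allele column was added after seeing the data. Allele counts limit the hybrid comparisons: 9 members had at most 21.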
